A study of Mus musculus with 6 samples.

Results

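The primitive streak transcription factors are regulators that switch on where the epiblast leaves pluripotency and forms mesoderm and endoderm. The 10 genes described here were taken by name, T, Eomes, Mixl1, Gsc, Lhx1, Evx1, Cdx1, Cdx2, Mesp1 and Hand1, out of 24083 genes in the table, and all 10 had a row. They were read in polyadenylated RNA of mouse embryonic stem cells, in 3 libraries with wild-type Nanog (WT) and 3 libraries with the R153A form of Nanog. All 6 libraries came from cells grown under normal culture in serum and LIF on gelatin-coated dishes. The labels do not say how R153A was introduced, whether it is 1 clone or whether replicate libraries are separate cultures, so p-values measure the spread between these libraries.

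In the embryo, WNT3, NODAL, BMP4 and FGF signals from the epiblast and its neighbours induce the streak. The T-box factors brachyury (encoded by T) and EOMES, and the paired-like factor MIXL1, act early in it. GSC and LHX1 mark its anterior end and the organizer, EVX1 and the CDX factors its posterior end, and MESP1 and HAND1 nascent and extraembryonic mesoderm. CDX2, EOMES and HAND1 are also factors of the trophoblast lineage. NANOG, the mutated factor, is a homeodomain protein of pluripotent cells.

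Levels are in FPKM, fragment counts scaled to gene length and to the mapped fragments of the library. The read depth behind the values was unknown, so no counting error is given, and a value of 0 is reported only as listed at 0. Per library, FPKM added up to 360152 to 382086, and between 11147 and 11759 genes per library reached 1 FPKM. Of 12 embryonic stem cell markers, all 12 were above the filter in these libraries, and Nanog itself stood at 241 to 259 FPKM in WT, against 119 to 129 FPKM in R153A. FPKM values do not show the R153A substitution itself.

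The stretches of 250 bases before the annotated start are shown for T, Cdx2 and Eomes. Among members past the filter described below, T and Cdx2 were called higher and Eomes lower. Members under that filter also moved, such as Gsc, which was lower in every R153A library, and their windows are not shown. The stretches shown are RefSeq promoters of build GRCm38.p6, written 5′ to 3′ along the gene in lower case. Matches to the searched motifs are in capitals.
T (chr17:8434173-8434422, plus strand): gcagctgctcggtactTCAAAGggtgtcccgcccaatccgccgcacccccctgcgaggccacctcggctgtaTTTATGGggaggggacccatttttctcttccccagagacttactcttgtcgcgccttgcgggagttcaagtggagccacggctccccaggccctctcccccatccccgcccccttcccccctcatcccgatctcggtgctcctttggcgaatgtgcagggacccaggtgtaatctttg
Cdx2 (chr5:147307250-147307499, minus strand): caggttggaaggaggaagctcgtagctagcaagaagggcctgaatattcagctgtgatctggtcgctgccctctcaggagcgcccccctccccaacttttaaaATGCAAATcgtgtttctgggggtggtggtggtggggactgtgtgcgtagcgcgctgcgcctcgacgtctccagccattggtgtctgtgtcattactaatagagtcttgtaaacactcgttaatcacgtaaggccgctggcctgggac
Eomes (chr9:118477939-118478188, plus strand): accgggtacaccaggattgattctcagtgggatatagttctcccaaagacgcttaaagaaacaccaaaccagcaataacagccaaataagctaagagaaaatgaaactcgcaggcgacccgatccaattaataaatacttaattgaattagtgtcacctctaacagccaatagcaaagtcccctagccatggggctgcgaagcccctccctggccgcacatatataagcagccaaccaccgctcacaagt
Motifs were searched on both strands: CTTTGA for TCF/LEF factors, GGTGTGA for T-box factors, AATNNACA for FOXH1, TTTATNG for CDX factors and the octamer ATGCAAAT of POU factors, none of which contains another. The T window held a TCF/LEF match 234 to 229 bases before the start, on the opposite strand, and a CDX match 178 to 172 bases before it. The Cdx2 window held 1 match, the octamer 147 to 140 bases before the start, and the Eomes window held none of these letters. Promoters of 7 of the 10 genes were searched, which left out Mixl1, Hand1 and Cdx1. The TCF/LEF letters stood in 2 of these 7 (T and Mesp1) and in 13.8% of all 32851 promoters of this length. The CDX letters stood in 2 of 7 (T and Evx1), against 9.81% of all promoters, and the octamer in 2 of 7 (Cdx2 and Evx1), against 1.6%. The T-box and FOXH1 letters, in 3.33% and 10.9% of all promoters, stood in none of the 7. These are letter matches in a short window, not binding data.

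T and Cdx2 each rose from near 0 to several FPKM. Eomes was lower in R153A, and the Hand1 groups overlapped. The other 6 genes stayed low throughout. Of the 10, 5 (Gsc, Evx1, Mixl1, Lhx1 and Mesp1) were under 1 FPKM in every library. Cdx1 passed 1 FPKM in a single R153A library. Within these low levels, Cdx1, Mixl1 and Lhx1 were higher in every R153A library and Gsc was lower in every one. Differences were tested with limma on log2(FPKM + 1), among genes with 3 or more of the 6 libraries at 1 FPKM or above, with Benjamini-Hochberg adjustment over 11817 genes. Adding 1 before the logarithm understates changes of genes with low FPKM.

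Of the 10 genes, 4 passed that filter, of which 2 rose (T and Cdx2), 1 fell (Eomes) and 1 did not pass the test (Hand1). Of all genes tested, 37.5% rose and 22.3% fell, so calls in either direction were common in this comparison (59.8%). T and Cdx2 entered the test only through R153A, so they had to differ to be tested, and their 2 calls add no support beyond their values. Higher genes made up 62.7% of all calls as deposited, 50.7% under median-ratio scaling and 48.1% under quantile normalization.

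**Figure D1:**
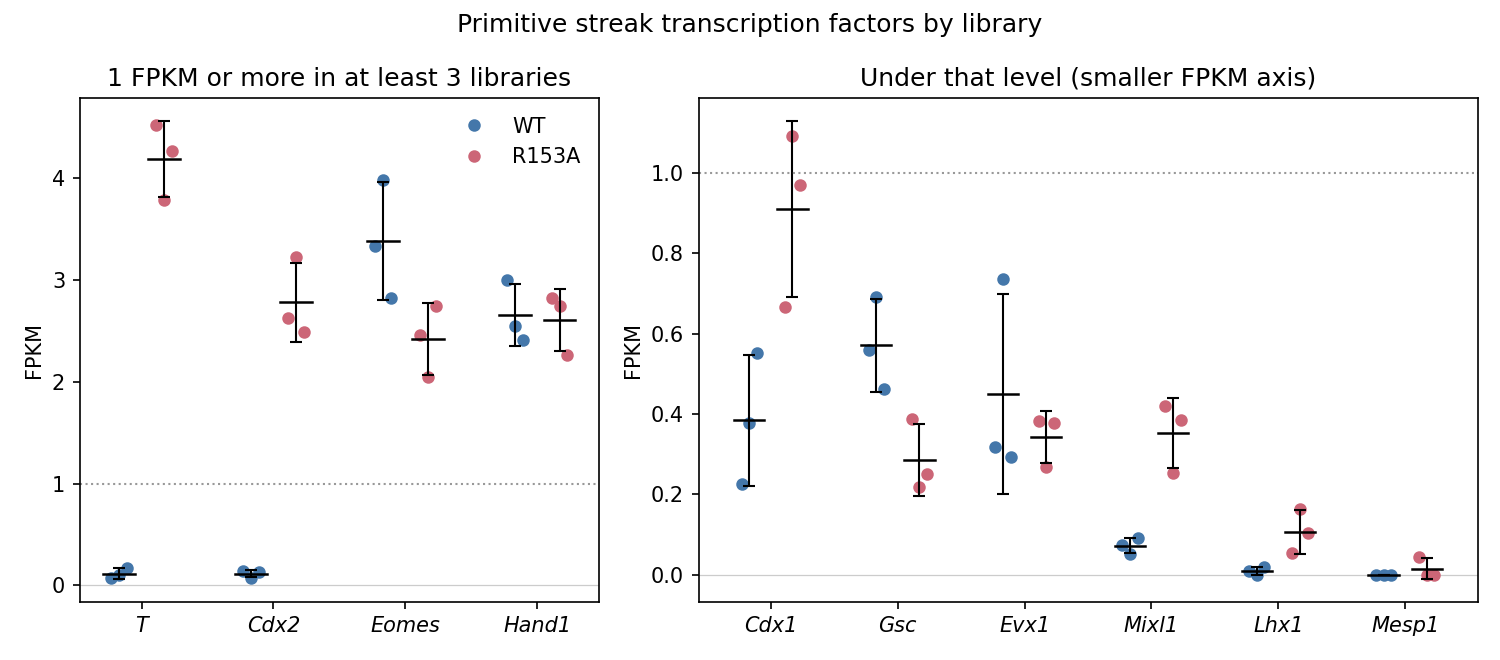
FPKM of the 10 genes in each library (points; blue WT, red R153A), with the mean and SD of the 3 libraries in black and a dotted line at 1 FPKM; the left and right panels have different linear axes. T and Cdx2 lie under 0.2 FPKM in all WT libraries and above 2 FPKM in all R153A libraries, whereas the Hand1 groups overlap.

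T, the founding T-box factor and a direct WNT target of the streak, was at 0.0726, 0.101 and 0.176 FPKM in WT. In R153A it was at 4.52, 3.78 and 4.27 FPKM. The lowest R153A library thus lay far above the highest WT library. The mean moved from 0.117 ± 0.0535 to 4.19 ± 0.373 FPKM (SD, n = 3 each), with a log2 difference of 2.21 and an SE of 0.0858 (adjusted p = 4.5e-09 by limma). It ranked 62 among the rises of the 11817 genes tested. Among 12550 rows under 1 FPKM in every WT library, 4.12% were at 1 FPKM or more in every R153A library, and T and Cdx2 were the 2 members among these.

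Eomes, the T-box factor of the anterior streak and definitive endoderm, was at 3.33, 3.98 and 2.83 FPKM in WT. In R153A it was at 2.46, 2.04 and 2.74 FPKM. The groups did not overlap, but the highest R153A library lay close under the lowest WT library. The mean fell from 3.38 ± 0.581 to 2.42 ± 0.353 FPKM, 1.4-fold lower, at a log2 difference of -0.36 (SE 0.11, adjusted p = 0.0163 by limma). That call was lost without WT replicate 2 (limma adjusted p = 0.0737), without R153A replicate 2 (0.0627) and with no filter on low values (0.0714). Over the alternatives its adjusted p ranged from 0.00117 to 0.0737. An annotated antisense transcript, Gm33460, overlaps Eomes and had no row of its own, and the sources used here do not say whether counting used strand.

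The 2 T-box members therefore moved in opposite directions, and their order changed. In WT, Eomes stood above T in every library, and in R153A T stood above Eomes in every library. Eomes made up 40.6% to 46.5% of the summed FPKM of the 10 genes in WT and 14.8% to 19.8% in R153A. T made up 0.939% to 2.53% of that sum in WT and 27.4% to 31.4% in R153A. The sum itself was 6.97 to 8.57 FPKM in WT and 13.8 to 14.4 FPKM in R153A.

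Cdx2, the caudal-type homeobox factor of the posterior embryo and the trophectoderm, was at 0.139, 0.0749 and 0.137 FPKM in WT. In R153A it was at 2.63, 3.22 and 2.48 FPKM. The groups lay far apart, as they did for T. The mean moved from 0.117 ± 0.0364 to 2.78 ± 0.392 FPKM (log2 difference 1.75, SE 0.0925, adjusted p = 4.4e-08 by limma), which ranked 171 among all genes tested.

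Cdx1, its paralog in the streak, was at 0.225, 0.377 and 0.551 FPKM in WT, and the R153A libraries were at 0.667, 1.09 and 0.971 FPKM. The groups did not overlap, at a 2.37-fold higher mean in R153A, but the gene was under the filter. In a fit of genes with a mean of at least 0.5 FPKM over all 6 libraries, its difference was 0.46 (limma adjusted p = 0.00579). Its WT mean was under that filter too, so it entered that fit through R153A. Cdx4, the remaining caudal gene and not among the 10, was at 0.0386, 0.0687 and 0.0531 FPKM in WT, and the R153A libraries were at 1.73, 1.54 and 2.20 FPKM (log2 difference 1.42, SE 0.0973, adjusted p = 3.4e-07 by limma). It also passed the filter only through R153A. In each of the 3 caudal genes every R153A library was above every WT library. The same held for 30.7% of the 8176 rows with a WT mean above 0 and under 1 FPKM.

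Mixl1, the paired-like homeobox factor of mesendoderm, was at 0.0742, 0.0525 and 0.0903 FPKM in WT. In R153A it was at 0.420, 0.254 and 0.385 FPKM. All R153A libraries were higher, at a level still well under 1 FPKM. Its difference on the log2 scale was 0.33, which passed when low values were not filtered (SE 0.0495, limma adjusted p = 0.0027).

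Gsc, the homeobox factor of the organizer, moved the other way, with 0.560, 0.691 and 0.462 FPKM in WT and 0.387, 0.219 and 0.251 FPKM in R153A. All R153A libraries were lower, and the mean was 2.00-fold lower. With no filter on low values the difference was -0.29 (SE 0.0729, limma adjusted p = 0.022). Lhx1, the LIM homeobox factor active in the organizer and nascent mesoderm, was at 0.00847, 0 and 0.0181 FPKM in WT, and the R153A libraries were at 0.0531, 0.163 and 0.103 FPKM. The R153A libraries were higher, but all 6 values lay at the bottom of the scale. With no filter on low values its difference was 0.13 (SE 0.0363, limma adjusted p = 0.0303). The members that mark the anterior streak thus did not share 1 direction: Eomes and Gsc were lower and Lhx1 was higher.

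Evx1, a homeobox factor of the posterior streak, was at 0.318, 0.736 and 0.292 FPKM in WT, and the R153A libraries were at 0.383, 0.268 and 0.377 FPKM. The groups overlapped, and WT replicate 2 stood apart as the highest library. The difference was -0.10, and 0.04 without that library. With no filter on low values it did not pass (limma adjusted p = 0.571). The row of the overlapping antisense transcript Evx1os (5730457N03Rik in the table) was also highest in WT replicate 2, at 0.217 FPKM against 0.0642 to 0.135 in the other libraries. In stretches where the 2 genes overlap, reads may not be told apart without strand. Whether that affected either row was not tested.

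Hand1, the basic helix-loop-helix factor of extraembryonic mesoderm, heart and trophoblast giant cells, was at 3.00, 2.55 and 2.41 FPKM in WT. In R153A it was at 2.82, 2.75 and 2.26 FPKM. The groups overlapped throughout, at a log2 difference of -0.02 (SE 0.0925, adjusted p = 0.869 by limma). Mesp1, the basic helix-loop-helix factor of the earliest cardiac mesoderm, was listed at 0 in 5 libraries and at 0.0443 FPKM in R153A replicate 1. No difference was detectable for it at this level.

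For the 7 members in which the groups did not overlap, the exact two-sided permutation test gave p = 0.1 each, the lowest value possible with 3 against 3. Among them, 5 were higher in R153A (T, Cdx2, Cdx1, Mixl1 and Lhx1) and 2 were lower (Eomes and Gsc). Over all rows of the table, 28% had non-overlapping groups with R153A higher and 15% with R153A lower. Among 8176 rows with a WT mean above 0 and under 1 FPKM, the shares were 30.7% and 7.17%. Of the 7 members in that range, 5 were higher and 1, Gsc, was lower. With no filter on low values, limma called 5 of the 10 genes higher, where 26.9% of all 20504 rows above 0 were, and 1 lower, where 13.4% were.

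**Figure D2:**
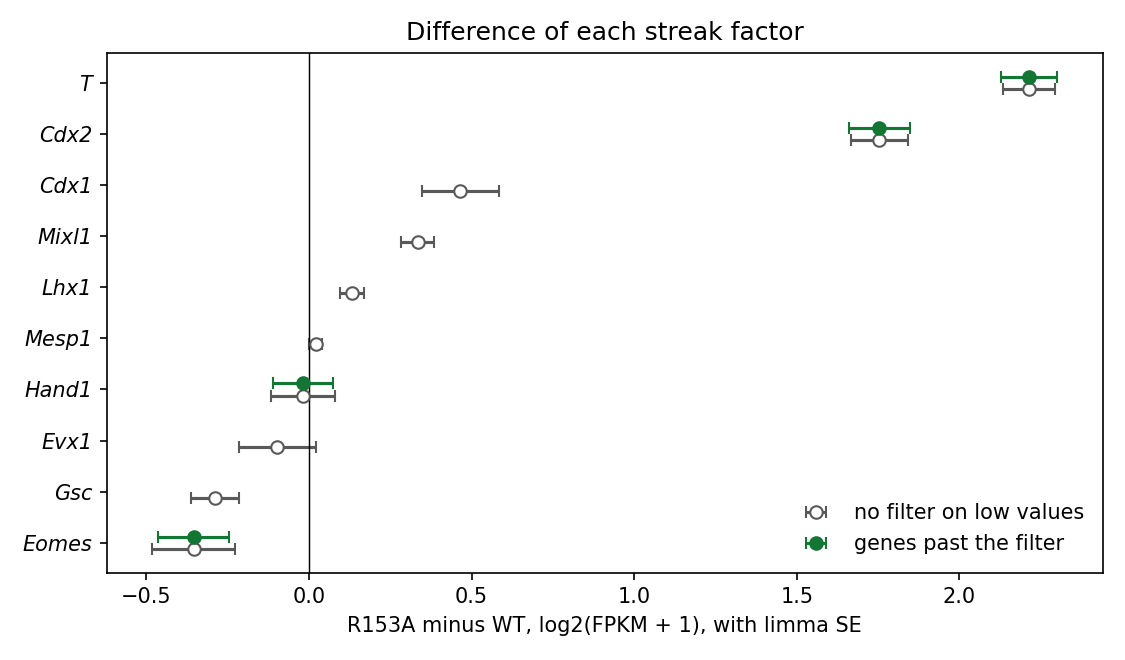
Difference between R153A and WT in mean log2(FPKM + 1) for each of the 10 genes, with the limma SE; filled points are the 4 genes past the filter and open points the fit with no filter on low values. T (2.21) and Cdx2 (1.75) lie far to the right of the other 8, which lie between -0.36 and 0.46.

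The level of the 10 genes in WT ran from Eomes and Hand1 down through Gsc, Evx1 and Cdx1 to Cdx2, T and Mixl1, with Lhx1 and Mesp1 last. Eomes and Hand1 overlapped there, as did Gsc, Evx1 and Cdx1 with each other, and T with Mixl1 and Cdx2. In R153A the order was T, then Cdx2, Hand1 and Eomes, whose libraries overlapped, then Cdx1, then Mixl1, Evx1 and Gsc, which overlapped, and then Lhx1 and Mesp1. The lowest T library in R153A (3.78 FPKM) stood above the highest Cdx2 library (3.22 FPKM). At such levels replicate libraries differ widely, with a median coefficient of variation between WT libraries of 47.1% for genes of 0.05 to 0.2 FPKM, 21.5% for 0.2 to 1 FPKM and 10.3% for 1 to 5 FPKM. In bulk RNA, a few cells with a high level and many cells with a low level cannot be told apart.

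Paralogs of the members moved in both directions. Of 15 other T-box genes in the table, 3 were tested. Tbx3, a T-box factor of naive pluripotent cells, fell from 19.04 ± 0.421 to 4.17 ± 0.137 FPKM (log2 difference -1.96, SE 0.0588, adjusted p = 8.3e-10 by limma). Mga, a T-box and MAX-binding repressor, fell from 19.2 ± 1.36 to 15.1 ± 0.431 FPKM, and Tbx20, a cardiac T-box factor, rose from 0.481 ± 0.0439 to 1.54 ± 0.119 FPKM. Tbx20 passed the filter only through R153A. Tbx6, which acts downstream of T in paraxial mesoderm, was under the filter at 0.469 FPKM in WT and 0.621 in R153A on average, and its groups overlapped.

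Gsc2, the goosecoid paralog, was lower in R153A as Gsc was, at 0.517, 0.884 and 0.705 FPKM in WT and 0.405, 0.397 and 0.175 FPKM in R153A, under the filter. Mesp2 was at 0.628, 0.530 and 0.511 FPKM in WT and 0.749, 0.675 and 0.643 FPKM in R153A, above Mesp1 in every library. The lowest R153A value of Mesp2 was just above its highest WT value, and with no filter on low values it did not pass (limma adjusted p = 0.109). Evx2 and Hand2 reached at most 0.0458 and 0.141 FPKM in any library. Otx2, a paired-like relative of Mixl1 and a factor of the formative epiblast and anterior streak, fell from 48.2 ± 0.896 to 31.5 ± 0.532 FPKM. Of 11 LIM homeobox relatives of Lhx1, Lmx1b was the 1 tested, and it rose from 0.328 ± 0.027 to 1.92 ± 0.102 FPKM, through R153A alone.

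**Figure D3:**
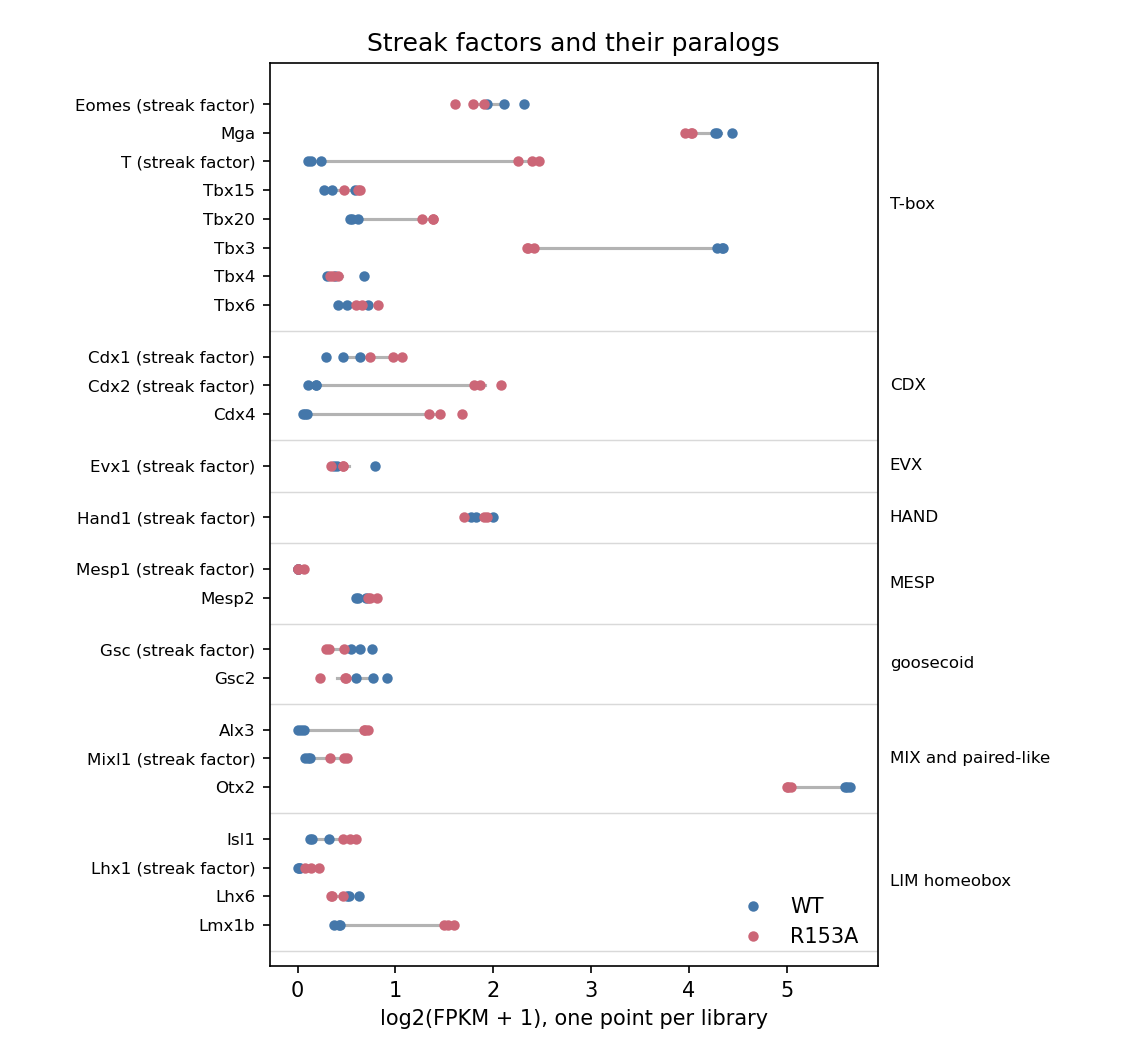
Level of each streak factor and of its paralogs that reached 0.5 FPKM in any library, as log2(FPKM + 1) with 1 point per library (blue WT, red R153A) and a grey line joining the group means. The 3 CDX genes all have R153A to the right of WT, whereas in the T-box group T and Tbx20 lie to the right and Tbx3, Mga and Eomes to the left.

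Other genes of the streak programme were read from 4 lists of ligands and receptors, antagonists, nuclear effectors upstream of the streak and genes of nascent mesoderm. Of 29 ligands and receptors, 22 were tested: 13 rose, 6 fell and 3 missed the threshold. The counts in this and the other lists are to be read beside the 37.5% higher and 22.3% lower of all genes tested. The medians of all 4 lists include genes that passed only through R153A. The lists were also written with earlier results of these data known. The median log2 fold change of the ligands and receptors was 0.69, against 0.07 over all genes tested, and 6 of them passed the filter only through R153A. Those 6 had to be higher there to be tested, so the median is not read as a result about the list. The largest changes were rises of Wnt8a, a WNT ligand of the posterior epiblast, from 0.197 ± 0.0527 to 15.9 ± 1.74 FPKM, and of Apela, Fgf8 and Wnt3. Wnt3, the ligand needed for streak formation, was at 0.0969, 0.132 and 0.170 FPKM in WT, and the R153A libraries were at 4.64, 3.999 and 4.12 FPKM. Wnt3a, the ligand of the later streak and tail bud, averaged 0.125 FPKM in WT and 0.0374 FPKM in R153A, with overlapping groups and under the filter. Nodal, the streak's TGF-β family ligand, rose from 16.4 to 44.6 FPKM on average, while Bmp4, which induces the streak from the extraembryonic side, fell from 7.86 to 3.14 FPKM. These 3 were chosen after their values were seen.

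Of 16 antagonists of these signals, 9 were tested: 5 rose, 2 fell and 2 missed the threshold, with a median of 1.30. The largest rises were those of Lefty1 and Lefty2, the Nodal inhibitors, of Fst, the activin antagonist follistatin, and of Axin2, a feedback inhibitor of WNT signalling. Axin2 rose from 0.804 ± 0.0128 to 4.37 ± 0.284 FPKM. In the other direction, Sfrp1 fell from 12.5 to 6.96 FPKM and Notum from 3.42 to 1.55 FPKM on average. Fst, Axin2 and the BMP antagonist Nog passed the filter only through R153A, so they had to be higher there to be tested. The median of 1.30 is the value of Nog, and it is not read as a result about the list. Cer1, the Nodal and WNT antagonist of the anterior endoderm, stayed near 0, with a mean of 0.0365 FPKM in R153A.

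Of 23 upstream nuclear effectors, 22 were tested: 11 rose, 7 fell and 4 missed the threshold, with a median of 0.25. As shares, 11 and 7 of 22 are both above those of all genes tested (37.5% higher and 22.3% lower), and nothing particular to the list is read from them. Sp5, a zinc-finger WNT target, rose from 0.108 ± 0.0247 to 8.42 ± 0.568 FPKM, through R153A alone. Foxh1, the forkhead partner of SMAD2 and SMAD3, rose from 9.22 ± 1.13 to 36.5 ± 1.18 FPKM (log2 difference 1.88, SE 0.076, adjusted p = 5.9e-09 by limma). Id3 and Id1, inhibitors of basic helix-loop-helix factors, rose as well. Of the direct WNT effectors, Ctnnb1, which encodes β-catenin, rose from 166 to 213 FPKM on average and Tcf7l1 from 17.2 to 20.7 FPKM. Tcf7 (19.8 and 19.04 FPKM), Lef1 (7.44 and 8.07 FPKM) and Tcf7l2 (1.35 and 1.86 FPKM) did not pass.

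Of 45 genes of nascent mesoderm and its neighbours, 19 were tested: 11 rose, 5 fell and 3 missed the threshold, with a median of 0.57, and 4 passed the filter only through R153A. The largest changes were the rises of Flt1, a VEGF receptor, Epha1, an Eph receptor, and Foxa2, the forkhead factor of endoderm and axial mesoderm, and the fall of Fgf17 from 14.5 ± 1.01 to 3.92 ± 0.270 FPKM. Fgf17 stands in the ligand list too. Snai1, the repressor that drives epithelial-mesenchymal transition in the streak, rose from 0.910 to 4.03 FPKM on average. Cdh1, the epithelial cadherin, rose from 77.1 to 119.7 FPKM. Cdh2, another cadherin, rose from 0.561 to 2.43 FPKM, through R153A alone. Vim and Fn1 fell, from 26.8 to 19.9 and from 77.4 to 56.0 FPKM. Among genes of paraxial mesoderm and its segmentation, Dll3 (0.515 to 3.17 FPKM, through R153A alone), Dll1 (1.38 to 2.80 FPKM) and Lfng (2.04 to 5.53 FPKM) rose, while Msgn1 averaged 0.0808 and 0.0872 FPKM. Among genes of haemato-endothelial mesoderm, Lmo2 averaged 0.273 and 1.60 FPKM and Tal1 0.0465 and 0.188 FPKM, both under the filter and without overlap of the groups, and Kdr 0.0347 FPKM in each group. The genes of this paragraph from Snai1 on were chosen after their values were seen.

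**Figure D4:**
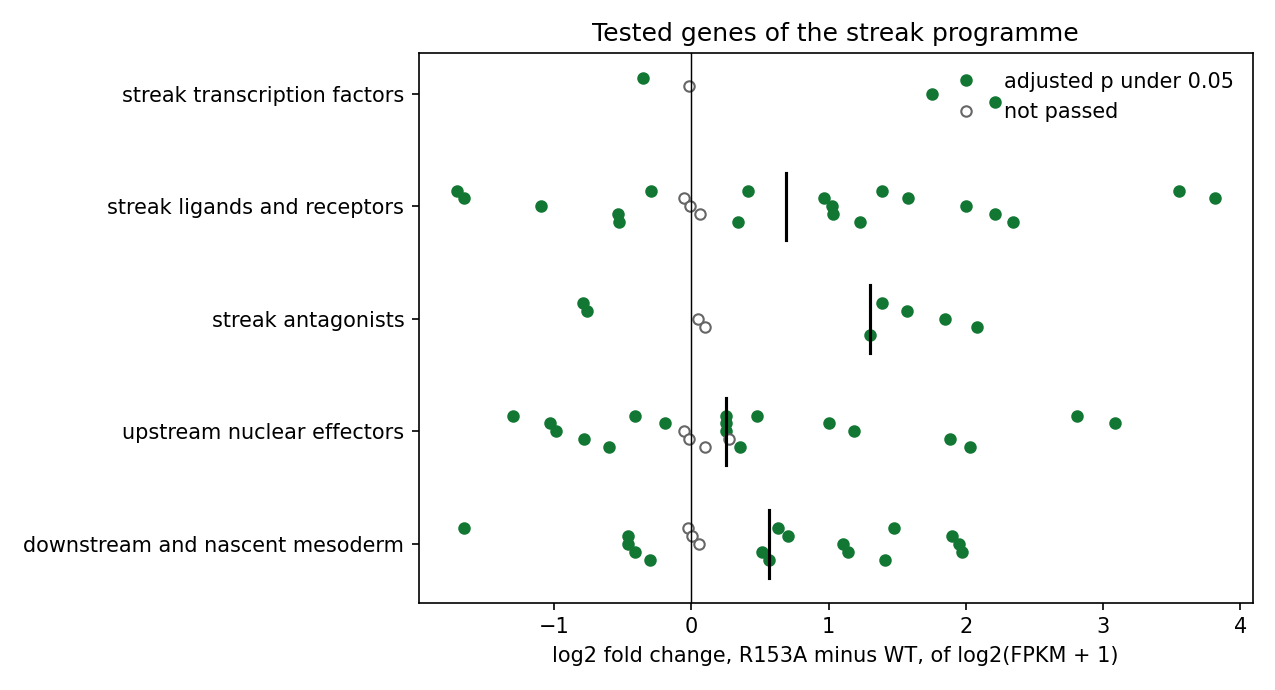
Log2 fold change (R153A minus WT, log2(FPKM + 1)) of each tested streak factor and of the tested genes in 4 related lists, 1 point per gene; filled points passed at an adjusted p under 0.05 and black bars mark list medians. Every list has genes on both sides of 0, with medians of 0.69, 1.30, 0.25 and 0.57 from the ligands down.

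Over the 6 libraries, the genes nearest to T by root mean square distance of log2(FPKM + 1) were Wnt3 (0.0396), Flt1 (0.143) and Mir302c (0.158), among 11194 genes compared. Nearest to Cdx2 were Foxe1 (0.133), Wnt6 (0.176) and Fst (0.177). All 6 passed the filter only through R153A, and with 2 groups of libraries the measure reflects little beyond the level in each group.

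Markers of other cell types that carry these factors moved in both directions, as did genes in general (37.5% higher and 22.3% lower). Of 15 trophectoderm markers, 9 were tested: 5 rose, 3 fell and 1 missed the threshold, and Cdx2, Eomes and Hand1 are 3 of the 15. Their summed level was 108 to 122 FPKM in WT and 389 to 422 FPKM in R153A, with a median log2 difference of 1.46 among the tested. The keratins Krt8 (22.7 to 214 FPKM) and Krt18 (18.8 to 143 FPKM) rose and made up most of the sum in R153A, whereas Tfap2c was the highest of the list in WT. Krt7 (to 7.61 FPKM) and Ascl2 (2.27 to 7.99 FPKM) rose as well. Tfap2c and Tead4 fell, from 55.4 to 19.8 and from 5.60 to 2.23 FPKM. Under the filter, Plac1 (0.224 to 1.06 FPKM on average) and Gata3 (0.404 to 0.792 FPKM) were higher in every R153A library, as were 28% of all rows. The groups of Gcm1 (0.0782 and 0.198 FPKM), Tpbpa (0.527 and 0.448 FPKM) and Elf5 (0.0662 and 0.00617 FPKM) overlapped. The WT mean of Elf5 came mostly from WT replicate 2 (0.172 FPKM). Prl3d1, which marks trophoblast giant cells, was listed at 0 in all 6 libraries. Of 10 neuromesodermal and tail bud markers, 5 were tested, of which T, Cdx2, Cdx4 and Fgf8 rose through R153A alone and Sox2 fell. Of those under the filter, Nkx1-2, Hoxb1 and Cdx1 were higher in every R153A library. Nkx1-2 averaged 0.00775 FPKM in WT and 0.161 in R153A. Hoxb1 was listed at 0 in every WT library and averaged 0.129 FPKM in R153A. The groups of Hoxb9 (0.192 and 0.217 FPKM on average) and Wnt3a (0.125 and 0.0374 FPKM) overlapped.

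The other marker lists gave small sums beside those of the stem cell markers. The 13 markers of primitive and visceral endoderm summed to 10.6 to 12.5 FPKM in WT and 16.3 to 16.4 in R153A, with 2 risen, 2 fallen and 2 not passed of 6 tested. The 8 markers of definitive endoderm and node summed to 3.38 to 4.85 and 10.1 to 10.5 FPKM, with 2 risen and 1 not passed of 3 tested, and 4 of the 8, among them Sox17 and Cer1, under 0.1 FPKM in every library. The 10 markers of extraembryonic and lateral mesoderm, Hand1 included, summed to 31.5 to 32.3 and 19.04 to 20.4 FPKM, with 1 risen, 2 fallen and 1 not passed of 4 tested. The lower sum in R153A came from Pecam1 (19.3 to 9.68 FPKM on average) and Bmp4 (7.86 to 3.14 FPKM). Gata2 went up, from 1.03 to 2.01 FPKM. Tal1, Isl1 and Foxf1, all under the filter, were higher in every R153A library, and the groups of the remaining markers overlapped. The 11 fibroblast or feeder markers summed to 8.12 to 9.38 and 13.2 to 13.7 FPKM, with 4 risen and 1 not passed of 5 tested. Of the 12 stem cell markers, 9 fell, 1 rose and 2 did not pass, and their sum was 4436 to 5201 FPKM in WT and 2414 to 2518 in R153A. The part of these other cell types in the levels of the streak factors was not tested.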

How the data were processed

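The authors deposited 1 table of FPKM values per gene symbol and library. The submitters' processing notes name build mm9 and, without their roles, edgeR 3.26.8, HTSeq 0.11.2, SAMtools 1.9 and Bowtie2 2.3.4.3. The sources used here give no annotation, strand use or filters. Whole reads could not be recovered from the FPKM values, and no count test was run. Values were used as deposited, as log2(FPKM + 1), and tested two-sided with limma 3.58.1 (R 4.3.3, trended variances) at an adjusted p under 0.05. Folds are ratios of mean FPKM, given where every library reached 0.1 FPKM. Figures used matplotlib 3.10.9.

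The members and lists were chosen with earlier results of these data known. Named genes were the 10 members, Nanog, the 4 largest called changes of each list, paralogs reaching 1 FPKM and the 3 genes nearest to T and Cdx2. Others were chosen after their values were seen, and 1 gene that the rule took is not reported here. Foxf1a was read as Foxf1, and 1 listed symbol, Gscl, was not in the table. Alternatives were pseudocounts of 0.1 and 0.5, 3 other filters, 3 other scalings, 2 other variance models, a replicate block, and omission of each library in turn with the tested genes kept. Promoters came from RefSeq on GRCm38.p6, another build than mm9, and were matched by symbol.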

Additional observations from a re-analysis of the deposited data

How the results depend on the processing

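T and Cdx2 kept their direction in all 17 alternatives and passed in the 16 that tested them. Their differences ranged from 2.10 to 4.33 and from 1.61 to 3.74, the largest with a pseudocount of 0.1. Except with no filter on low values, both genes entered the test only through R153A, so their passing adds no support beyond their values. With no filter on low values 5 members were called higher, as Mixl1 (0.33), Lhx1 (0.13) and Cdx1 (0.46) passed, and Gsc (-0.29) passed as lower, while Eomes (-0.36) no longer did. Cdx1 (0.46) also passed with the filter on the mean. No member reached a filter of 5 FPKM, which left 0 called higher and 0 lower, 2901 of all genes higher and 22 genes of the related lists and paralogs higher, since fewer genes were tested. With no filter, 65 of the latter were higher, against 43 as deposited and filtered. Leaving out 1 library left 0 to 1 members called lower, and Eomes ranged from -0.45 to -0.26. Under quantile normalization Eomes was -0.55 (limma adjusted p = 0.00117). Leaving out 1 library, Evx1 ranged from -0.173 to 0.0400, above 0 without WT replicate 2. Hand1 ranged from -0.0669 to 0.0524, above 0 without WT replicate 1 (0.0477) and without R153A replicate 3 (0.0524). Its lowest value was -0.22 under quantile normalization, where it did not pass (limma adjusted p = 0.079). The named genes of the lists, the paralogs and the nearest genes kept their calls and directions wherever they were tested. Most of them were picked for large called changes or for nearness to T and Cdx2, so this adds no support.

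Deviations from the group means correlated at -0.049, -0.009 and 0.06 between libraries of the same number. Pairing by replicate number was thus not detected, which does not show that the libraries were unpaired. With the replicate block 4316 genes were higher and 2560 lower, against 4428 and 2634 without it, and T (2.21), Cdx2 (1.75) and Eomes (-0.36) were still called. Mesp1 gave no value without R153A replicate 1. Unknown depth limits all values under 1 FPKM.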
